A study of Mus musculus with 2 samples.

Results

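The 46 genes described here code for proteins that license, start and carry out DNA replication, supply it with nucleotides and histones, or repair DNA during S phase. They were chosen by symbol, as the genes of a list of replication and S phase genes that the feature tables of the libraries name, and they are 46 of the 32285 genes listed. All 46 had unique molecular identifiers (UMIs, each the tag of 1 captured RNA molecule) in both libraries. They lie on 17 chromosomes, and Pola1 is the only one on the X chromosome. The data are single-cell RNA-seq of epithelial cells sorted by tdTomato fluorescence from the dermal fraction of mouse back skin at postnatal day 1, the fraction that holds the growing hair follicles (HFs). There was 1 library labelled WT, from mice with K14-Cre and the tdTomato reporter by the study's account, and 1 labelled PADI4 cKO, from that line crossed to Padi4 fl/fl mice. K14-Cre is active in keratin 14 lineage cells, that is, across the skin epithelium, and both groups carried it, as both carried the reporter that the sort used. The floxed Padi4 line has a B6.Cg designation in the study's methods, and the number of animals per library is not given in the sources used here. The protocol given with both libraries names K14-Cre Padi4 fl/fl mice, and both libraries are labelled batch 1.

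The WT library held 143938990 UMIs and the cKO library 143945294, and 8069 and 7394 cells passed the filters, of which 7993 and 7357 were epithelial. The epithelial cells had a median of 14684 UMIs in WT and 16206 in cKO, and 14 cell barcodes occurred in both libraries. Krt14 was counted in 85.5% of the WT cells and 83.9% of the cKO cells, and Krt5 in 96.7% and 97.9%; both are keratins of basal keratinocytes, the labelled cell type. Padi4 did not tell the libraries apart: it had 98 UMIs in WT, a level of 0.770 CPM (UMIs of a gene scaled to the total UMIs of the same group of cells), and 92 in cKO, 0.710 CPM. A 3′ tag need not lie in the deleted part of the gene, so these counts check no label. Xist and Y-linked UMIs did differ between the libraries. In WT 26.0% of epithelial cells had Xist and no Y-linked UMI and 62.4% had Y-linked UMIs and no Xist, whereas in cKO 98.4% had Xist alone and none had Y-linked UMIs alone. A further 590 WT and 101 cKO cells had both, and 334 and 20 had neither. A difference between the libraries therefore cannot be told apart from a difference between animals or sexes, and with a single library for each genotype animals could not be compared by a test. All intervals below are exact 95% intervals that cover counting error only.

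Replication begins in G1, when the origin recognition complex, Cdc6 and Cdt1 load the Mcm2 to Mcm7 helicase onto DNA, and geminin (Gmnn) later blocks reloading. Cyclin-dependent kinases, such as that bound by cyclin E, and another kinase then bring Cdc45 and the GINS complex to the helicase, and polymerases, the Pcna clamp and its loaders copy both strands. Many of these genes are transcribed from late G1 into S phase under E2F factors. At this age the progenitor cells of the hair bulb divide rapidly, while the cells that leave it to form the hair shaft and the inner root sheath differentiate and stop dividing.

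Promoter sequence was looked at because E2F-type letters are a textbook feature of this family. RefSeq (GRCm38.p6) windows of 300 bases, 250 before the gene start and 50 from it on, were at hand for 35 of the 46 genes. The letters TTTCCCGC, TTTGGCGC, TTTCGCGC or TTTGCCGC, on either strand, occurred in 13 of the 35 (37.1%), against 704 of 27025 genes with such a window (2.61%). At least 2 matches were found in Mcm3, Mcm5, Mcm6 and Mcm7, against 0.107% of all genes. Their matches are shown in capitals, in the 250 bases before the start for Mcm5, Mcm6 and Mcm7, and in 30 bases just after the start for Mcm3, whose matches both lie there. In Mcm5 and in the first block of Mcm6, a match on one strand overlaps a match on the other. Mcm7 has its second match after the start, outside the stretch shown.
Mcm3, chr1:20820265-20820294, minus strand: gGCGGGAAAacttgggaagtTTTGGCGCca
Mcm5, chr8:75109259-75109508, plus strand: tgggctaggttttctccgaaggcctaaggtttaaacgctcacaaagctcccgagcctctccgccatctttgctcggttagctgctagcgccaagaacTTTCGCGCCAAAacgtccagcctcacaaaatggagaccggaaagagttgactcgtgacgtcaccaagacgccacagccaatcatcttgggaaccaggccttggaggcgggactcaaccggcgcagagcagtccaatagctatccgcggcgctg
Mcm6, chr1:128359706-128359955, minus strand: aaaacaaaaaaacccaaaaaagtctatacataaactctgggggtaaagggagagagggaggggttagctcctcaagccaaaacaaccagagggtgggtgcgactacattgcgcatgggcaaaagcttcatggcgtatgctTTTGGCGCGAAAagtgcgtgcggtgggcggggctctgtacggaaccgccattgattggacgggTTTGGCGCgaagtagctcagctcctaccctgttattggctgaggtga
Mcm7, chr5:138171884-138172133, minus strand: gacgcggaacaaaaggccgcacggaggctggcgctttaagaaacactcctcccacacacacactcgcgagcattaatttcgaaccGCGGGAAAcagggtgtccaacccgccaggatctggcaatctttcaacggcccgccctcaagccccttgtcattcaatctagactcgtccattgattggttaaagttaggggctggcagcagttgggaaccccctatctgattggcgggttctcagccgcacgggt
Besides these 4 of the 5 helicase genes with a window, matches were found in Cdc6, Pola1, Pold3, Lig1, Uhrf1, Hells, Cdca7, Clspn and Dtl. None of the 5 nucleotide supply genes and none of the 4 histone supply genes had one. A match describes letters in a window and is not a binding site.

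Cells were clustered on genes other than the 46, and clusters were named from marker genes. A score built from the 46 genes and a score of G2 and mitosis genes had first been regressed out, so the 46 genes entered the clustering in that way. The named groups were lower proximal cup (LPC)-like, germinative layer (GL)-like, outer root sheath (ORS)-like, inner root sheath (IRS)-like, medulla (Med)-like, upper HF (uHF)-like, interfollicular epidermis (IFE)-like and sebaceous gland (SG)-like. Clusters that met no name keep a number: cluster 11 was led by Krt6a and Wfdc18, cluster 12 by Krt75 and Wnt11, cluster 17 by Tagln and Olfml2b, and cluster 19 by the hair shaft genes Dsg4, Krt35 and Krt86. Clusters 9 and 18 held 39 and 45 WT cells and were left out of the WT map, which holds the 12 groups of at least 50 cells. These class names were assigned anew and need not match the published clusters.

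Among the groups of at least 50 cells, replication transcripts were most abundant in GL-like cells and least abundant in the shaft cluster. The highest group changed with the grouping. At a finer clustering, where each new cluster took the label that most of its cells had here, cluster 12 led. IRS-like cells led when cells were gated by their own marker UMIs, at 5219 CPM against 5062 in LPC-like and 5006 in GL-like cells of WT. In WT the summed level of the 46 genes was 5519 CPM (5492 to 5548) in GL-like cells and 1031 CPM (991 to 1071) in cluster 19. In the cKO library these groups had 5872 CPM (5845 to 5898) and 908 CPM (867 to 951). Cluster 9 was lower than cluster 19 in WT, at 878 CPM (786 to 978) on 39 cells. In cKO it was higher, at 1133 CPM (1053 to 1217) on 60 cells. The order in between in WT was LPC-like at 5037 CPM, cluster 12 at 4968, IRS-like at 4959, cluster 11 at 4407, ORS-like at 4039, cluster 17 at 4037, Med-like at 3373, uHF-like at 3357, IFE-like at 1910 and SG-like at 1598 CPM. In direct ratios of the WT sums, the interval spanned 0 for IRS-like cells against cluster 12, ORS-like cells against cluster 17, and Med-like against uHF-like cells. IRS-like cells and cluster 12 lay just below LPC-like cells, at log2 ratios of -0.023 (-0.040 to -0.0049) and -0.020 (-0.036 to -0.0035). The 53 genes of a G2 and mitosis (G2M) list, which shares no gene with the 46, were also highest in GL-like cells, at 11536 CPM in WT, and in cluster 19 they stood at 1951 CPM.

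**Figure D1:**
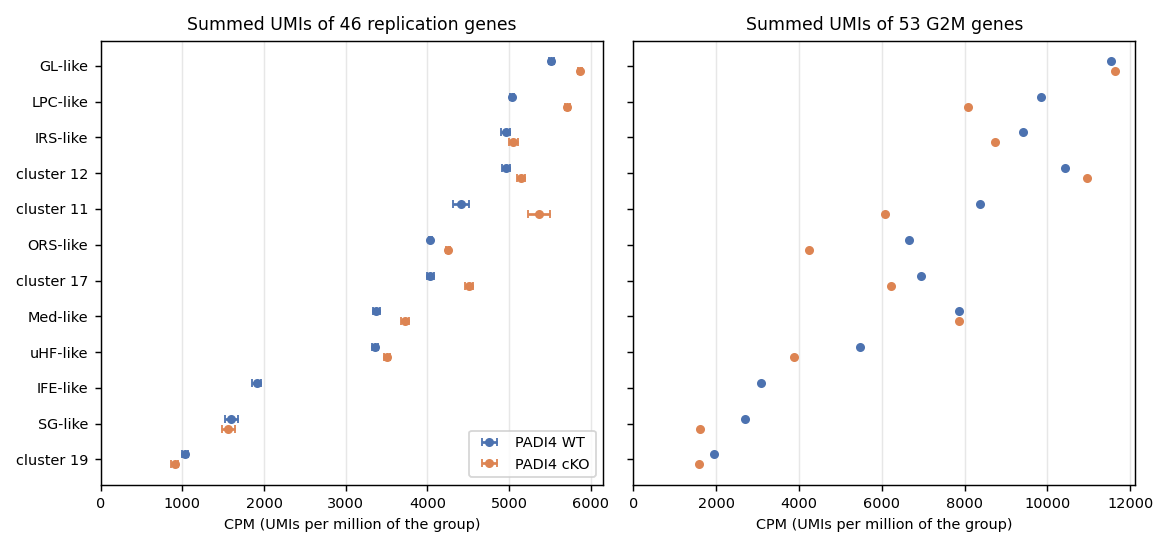
Summed CPM of the 46 replication genes (left) and of the 53 G2M genes (right) in the 12 groups of the WT map, WT in blue and cKO in orange where it had at least 50 cells, with exact Poisson 95% intervals on the left that are mostly narrower than the points. GL-like cells lead and cluster 19 is lowest in WT on both sides, and the G2M level of ORS-like cells is 6664 CPM in WT and 4251 CPM in cKO while their replication level is 4039 and 4252 CPM.

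Of the 46 genes, 40 differed at least 4-fold between their highest and lowest WT group, with a median of 6.41-fold and a range from 2.496 to 28.3-fold. Over the 13598 genes with enough UMIs, 44.2% passed that size and the median was 3.34-fold. The lowest group was cluster 19 for 41 genes and SG-like cells for the other 5, where 22.5% and 28.3% of all genes were lowest. The highest was GL-like for 27 genes (7.65% of all genes), IRS-like for 9 (5.25%), LPC-like for 4 (3.52%), cluster 12 for 3 (5.24%), and ORS-like, cluster 11 and cluster 17 for 1 each. The cKO map held cluster 9, with 60 cells, and not IFE-like cells, of which there were 21. There, 16 genes peaked in GL-like cells (6.36% of all genes), 11 in LPC-like (3.47%), 9 in cluster 11 (6.27%), 6 in cluster 12 (6.96%), 2 in ORS-like and 2 in IRS-like cells. The lowest was cluster 19 for 28 genes (20.9% of all genes), cluster 9 for 14 (25.7%) and SG-like cells for 5 (24.8%), and Ccne1 was counted under both of the first, as it was at 0 in each. The width of the map changed with how the cells were grouped. The count of genes with at least 4-fold was 21 at a coarser clustering, where 37.3% of all genes passed, and 2 when cells were gated by their own marker UMIs, where 23.3% did, so 2 of 46 was below the background. At cell minimums of 1000 and 4000 UMIs it was 23 and 20 (40.1% and 35.5% of all genes), at a finer clustering 26 (42.1%) and without cell cycle correction 24 (41.8%). In all of these groupings SG-like cells had the lowest summed level, 3114 CPM in the gated cells.

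Of the 6 helicase genes, 4 were highest in GL-like cells of WT. Mcm3, a helicase subunit, had 141 CPM in GL-like, 124 in LPC-like, 94.5 in ORS-like and 21.8 in cluster 19 cells of WT, and 136, 138, 107 and 15.5 CPM in cKO. Mcm6 differed from its partners in that ORS-like cells were highest in both libraries, at 159 CPM in WT and 184 CPM in cKO, against 150 and 160 CPM in GL-like cells. Mcm7 had a narrow range of 3.32-fold (2.76 to 4.05), and its values are uncertain because 45.4% of the 31-base stretches of its transcript ends also occur in another gene, Gm5487. Rrm2, Rfc2, Tyms and Usp1 shared between 15.8% and 21.8% in the same way, and all other members under 10%.

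Gins2, a subunit of the GINS complex that activates the helicase, ran against the general order. It had 78.6 CPM in ORS-like, 80.2 in cluster 17, 68.6 in LPC-like and 52.0 in GL-like cells of WT, and ORS-like cells exceeded GL-like cells by a log2 ratio of 0.60 in WT and 0.88 in cKO. Its partner Gins1 was highest in GL-like cells, at 54.8 CPM in WT and 52.9 CPM in cKO. Over all 46 genes, ORS-like cells were below GL-like cells by a log2 ratio of -0.45 in WT and -0.47 in cKO, and the interval lay below 0 for 42 genes in each library, against 35.3% of all genes compared in WT and 35.2% in cKO. Mcm10, which helps turn the loaded helicase into a moving one, followed the general order, with 33.4 CPM in GL-like and 2.77 CPM in cluster 19 cells of WT.

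The 3 members that code for E cyclins and an E2F factor were among the 9 that were highest in IRS-like cells of WT. Pcna, Tyms and Cdc45 were also among these 9, while Cdc6 and Mcm5 were highest in GL-like cells. In cKO, Ccne1 and E2f8 were highest in cluster 12, at 50.1 and 55.8 CPM, and Ccne2 in IRS-like cells. Ccne1, cyclin E1, had 55.5 CPM in IRS-like cells and 48.4 in cluster 12, against 31.1 in GL-like, 23.2 in LPC-like and 17.4 in ORS-like cells of WT. IRS-like over LPC-like cells gave a log2 ratio of 1.26 for Ccne1 in WT and 0.77 in cKO. Ccne2, cyclin E2, gave 1.04 and 0.71, and E2f8, a late-acting repressor of E2F targets, had 55.2 CPM in IRS-like and 39.3 in LPC-like cells of WT. The summed level of the 46 genes differed by only -0.02 in WT and -0.18 in cKO between the same classes, so these genes stood apart from the sum in both libraries. Clspn, the checkpoint adaptor claspin, also leaned to the IRS-like side, at 158 CPM against 102 CPM in LPC-like cells of WT.

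Cdca7, which works with the remodeller Hells in DNA methylation upkeep, leaned the other way. It had 51.8 CPM in IRS-like and 94.2 CPM in LPC-like cells of WT, a log2 ratio of -0.86, and the ratio was -0.94 in cKO. Hells was nearer to the sum, at 117 and 145 CPM in WT. Dut, which removes dUTP from the nucleotide pool, had 246 CPM in IRS-like, 360 in LPC-like and 366 in GL-like cells of WT.

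The widest ranges were those of Exo1, Dscc1, Clspn, Rad51ap1 and E2f8. Exo1, an exonuclease of mismatch and break repair, had 39.1 CPM in GL-like cells and 3 UMIs in cluster 19, a ratio of 28.3 with an interval from 11.2 to 160. Dscc1, part of an alternative clamp loader, also had 3 UMIs there, and its ratio of 18.9 had an interval from 7.499 to 107. Rad51ap1 was lowest in SG-like cells with 4 UMIs. The order among these 5 genes was therefore not resolved.

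The narrowest ranges were those of Pold3, Mcm7, Slbp, Nasp and Tipin. Pold3, a subunit of DNA polymerase delta, spanned 2.496-fold (1.72 to 3.90), from 70.7 CPM in IRS-like to 27.8 CPM in SG-like cells. Nasp, a histone H1 and H3 chaperone, still had 93.8 CPM in cluster 19 of WT and 102 CPM in cKO, and Slbp, which binds the stem loop of histone mRNAs, 48.7 and 42.6 CPM.

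Tyms, which makes thymidylate, had an exception of its own that was picked out after its values were seen. SG-like cells were near the bottom for most members, yet their Tyms level in WT was 134 CPM (112 to 159), close to the 154 CPM of LPC-like cells. In cKO it was 120 CPM, below the 173 CPM of LPC-like cells. Cluster 19 was far lower, at 17.02 CPM in WT and 15.04 CPM in cKO. A Tyms UMI was found in 87.0% of the 54 SG-like WT cells. Rrm1 and Rrm2, the ribonucleotide reductase subunits of the same supply route, had 33.0 and 17.5 CPM in those cells.

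**Figure D2:**
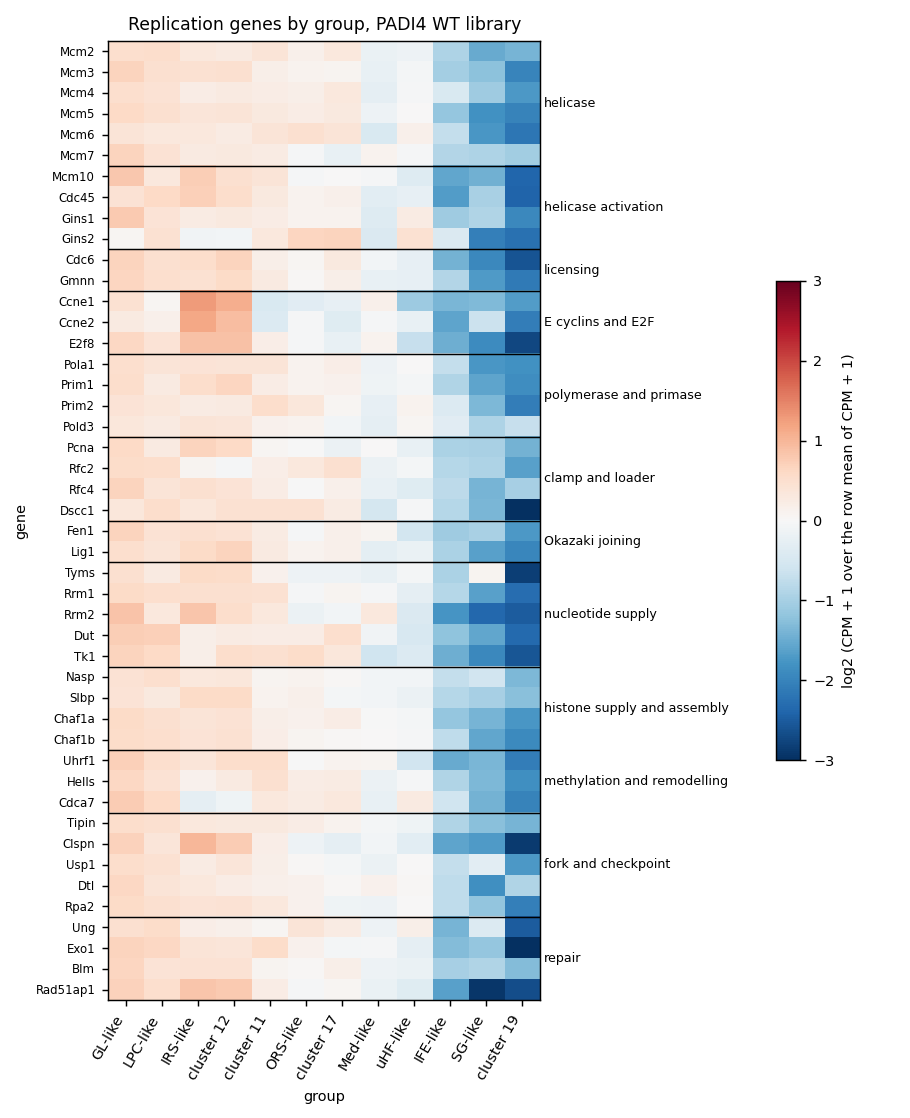
Level of each of the 46 genes in the 12 WT groups, as log2 of CPM + 1 over the gene's mean of CPM + 1 across the groups, with genes ordered by role and red above the mean. Cluster 19 and SG-like cells are blue for nearly all genes apart from Tyms in SG-like cells, and Ccne1, Ccne2 and E2f8 are reddest in IRS-like cells and cluster 12.

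Shares of cells with a UMI followed the levels in part. The median over the 46 genes was 72.2% of GL-like, 70.4% of LPC-like, 59.9% of IRS-like, 45.2% of ORS-like, 47.4% of Med-like, 58.5% of cluster 17, 25.9% of SG-like and 16.7% of cluster 19 cells in WT, so ORS-like cells lay below Med-like cells and cluster 17 in share but not in level. With every cell thinned to 2000 UMIs, because depth differed (a median of 18320 UMIs in LPC-like and 13084.5 in cluster 19 cells), the medians were 16.6% of LPC-like, 12.2% of ORS-like, 12.3% of cluster 17, 10.8% of Med-like, 3.70% of SG-like and 3.33% of cluster 19 cells. Pcna, the sliding clamp, was counted in 89.7% of GL-like, 82.5% of LPC-like and 51.1% of cluster 19 cells. Cdc6, the helicase loader, was counted in only 26.6%, 25.5% and 2.22% of the same cells. Droplets under 100 UMIs, which hold free RNA, had 3949 CPM of the 46 genes in WT and 4374 CPM in cKO, and the part of free RNA in the share of each gene was not tested. With the UMIs expected from such droplets subtracted, the log2 ratio of the sum between GL-like cells and cluster 19 was 2.88 in place of 2.42.

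Genes outside the lists followed the same class pattern. Over the 12 WT groups, the log2 CPM of Sass6, a centriole duplication gene, correlated with that of the summed 46 genes at r = 0.998, followed by Kif15 at 0.996, Spc24 at 0.994, Dnajc9 at 0.993 and Zwilch at 0.993 among 13427 genes screened. These are descriptions of 12 groups that share a library. In cKO the same 5 genes gave between 0.879 and 0.984.

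Within a class, the members split by how they related to G2M transcripts. GL-like and LPC-like cells of each library were divided into 3 equal groups by the share of their UMIs from the 53 G2M genes, and the highest was compared with the lowest. In GL-like cells the summed replication level was 6447 CPM in the low, 6483 in the middle and 4085 in the high group of WT, and 6916, 6945 and 4298 CPM in cKO. The log2 ratio of high over low was -0.66 in WT and -0.69 in cKO. In LPC-like cells the middle group stood out, with 4855, 6518 and 3875 CPM in WT and 4622, 7519 and 4912 CPM in cKO, ratios of -0.33 and 0.09. A total of 39 of the 46 genes in WT and 41 in cKO were highest in the middle group of LPC-like cells, against 26.6% and 26.4% of all genes.

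In all 4 sets of cells, 16 of the 46 genes were lower in the high than in the low group with an interval below 0, as were 8.85% of the 9239 genes compared. They were all 6 helicase genes, Gins1, Gins2, Cdc6, Prim2, Chaf1b, Hells, Cdca7, Dtl, Rpa2 and Ung. Ung, the uracil-DNA glycosylase, had 150 CPM in the low and 3.81 CPM in the high group of GL-like WT cells, and 158 and 6.79 CPM in cKO, and its log2 ratios in LPC-like cells were -3.83 and -2.60. Gins2 gave -3.28 and -3.35 in GL-like cells and -2.61 and -2.13 in LPC-like cells. Cdc6 gave -2.69 and -2.72 in GL-like cells, and -2.33 and -0.84 in LPC-like cells. The median over the helicase genes was -1.57, -1.46, -1.36 and -0.87 in the GL-like WT, GL-like cKO, LPC-like WT and LPC-like cKO cells.

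E2f8, Rrm1, Tk1, Usp1 and Blm went the other way in all 4 sets, as did 11.6% of all genes, so 5 of 46 was near the background. E2f8 had 29.8 CPM in the low and 49.6 in the high group of GL-like WT cells, and 10.2 and 47.4 CPM in LPC-like cells, log2 ratios of 0.73 and 2.20, and the cKO ratios were 0.71 and 3.26. Tk1, thymidine kinase, had ratios of 0.42 and 0.53 in GL-like cells and 0.80 and 1.27 in LPC-like cells. The other 25 genes had an interval across 0 or changed sign between sets. Ccne1 was one of these, at -0.75 and -0.97 in GL-like cells and -0.02 and 2.25 in LPC-like cells. The 46 ratios ran in a similar order in the libraries, with a Spearman coefficient of 0.981 between WT and cKO in GL-like cells and 0.906 in LPC-like cells, over genes that share cells and totals.

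The 13 genes with E2F-type letters had median ratios of -0.90, -0.88, -0.87 and -0.43 in the GL-like WT, GL-like cKO, LPC-like WT and LPC-like cKO cells, and the 22 genes with a window but no match had -0.61, -0.64, -0.09 and 0.47. The 11 genes without a window had -0.76, -0.81, -0.51 and -0.09. The helicase genes make up 4 of the 13, and the windows were not tested against the ratios.

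**Figure D3:**
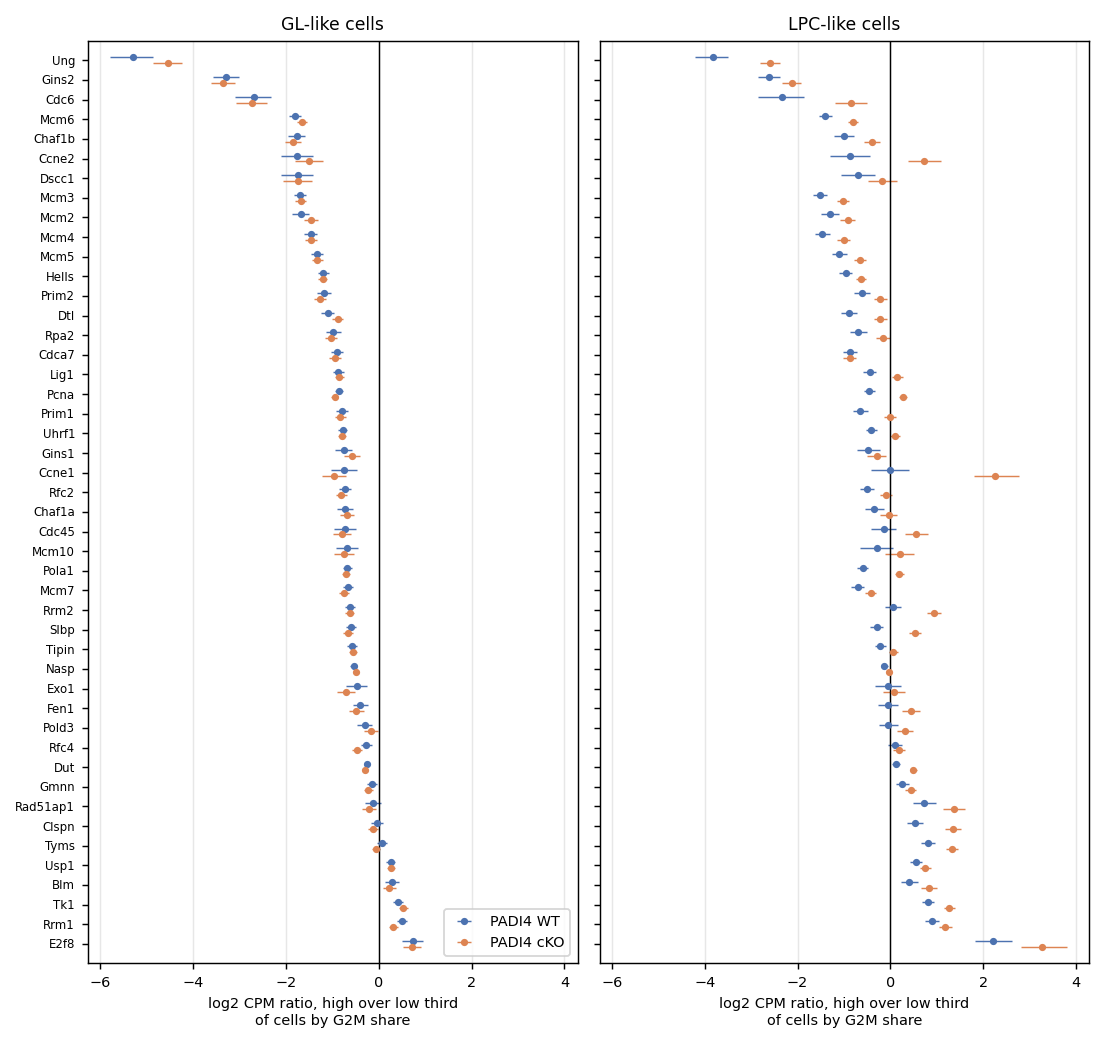
log2 CPM ratio of each of the 46 genes between the cells with the highest and the lowest G2M share, in GL-like (left) and LPC-like (right) cells, WT in blue and cKO in orange, with 95% counting intervals. Ung and Gins2 lie farthest left in both classes, E2f8, Tk1 and Rrm1 lie right of 0, and in LPC-like cells the cKO points lie mostly to the right of the WT points.

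The libraries were made to compare WT with PADI4 cKO, which here cannot be told apart from the animals and their sexes. In LPC-like cells the summed level of the 46 genes was 5037 CPM (5008 to 5066) in WT and 5714 CPM (5686 to 5742) in cKO, a log2 ratio of 0.18 (0.17 to 0.19). The ratio was positive for 44 of the 46 genes, with an interval above 0 for 40 and below 0 for 1, E2f8 at -0.16. Over all 11829 genes compared, 46.3% were positive, 15.6% had an interval above 0 and 19.4% one below 0. No gene passed 0.5 in size in either direction, where 1.82% of all genes lay above 0.5 and 2.76% below -0.5. Of 53 further replication genes fixed as a list, 44 had a positive ratio and none passed 0.5 either, with Ccna2, cyclin A2, lowest at -0.30 and E2f1 highest at 0.41.

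Pcna had 227 CPM in WT and 263 CPM in cKO LPC-like cells, a log2 ratio of 0.21 (0.16 to 0.27). Mcm5 had 105 and 130 CPM, a ratio of 0.31 (0.24 to 0.39), and Nasp 346 and 391 CPM, a ratio of 0.18 (0.13 to 0.22). The study named Pcna and Mcm5 in the LPC of these libraries, and Nasp among genes of the inner HF clusters, so they are no independent choice. The highest ratios were those of Dtl, which marks Cdt1 for destruction, at 0.40, Pola1, the primase-bound polymerase, at 0.39, Ung at 0.38 and Prim2 at 0.36. By role the median ratio ran from 0.08 for nucleotide supply to 0.30 for polymerase and primase.

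The ratio in LPC-like cells differed with the WT cells used, and the cause was not tested. Within WT alone, LPC-like cells with Xist exceeded those with Y-linked UMIs in 45 of the 46 genes, by 0.20 (0.18 to 0.22) for the sum, where 46.4% of all genes were higher. The direction was not general. The same contrast of sums was 0.25 in ORS-like, 0.20 in IRS-like and 0.02 in GL-like cells. It was -0.08 (-0.12 to -0.03) in uHF-like cells and -0.22 (-0.34 to -0.09) in cluster 19. When cKO was compared with the WT cells that had Xist and no Y-linked UMI, the LPC-like ratio was 0.04 (0.02 to 0.06) and 26 of the 46 genes were positive, against 50.4% of all genes. Mcm5 was then at 0.02, Pcna at 0.04 and Nasp at 0.13, while Pola1 was at 0.26. G2M transcripts went the other way between the libraries: their sum in LPC-like cells was 9841 CPM in WT and 8088 CPM in cKO, a log2 ratio of -0.28, which was -0.17 against the WT cells with Xist.

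**Figure D4:**
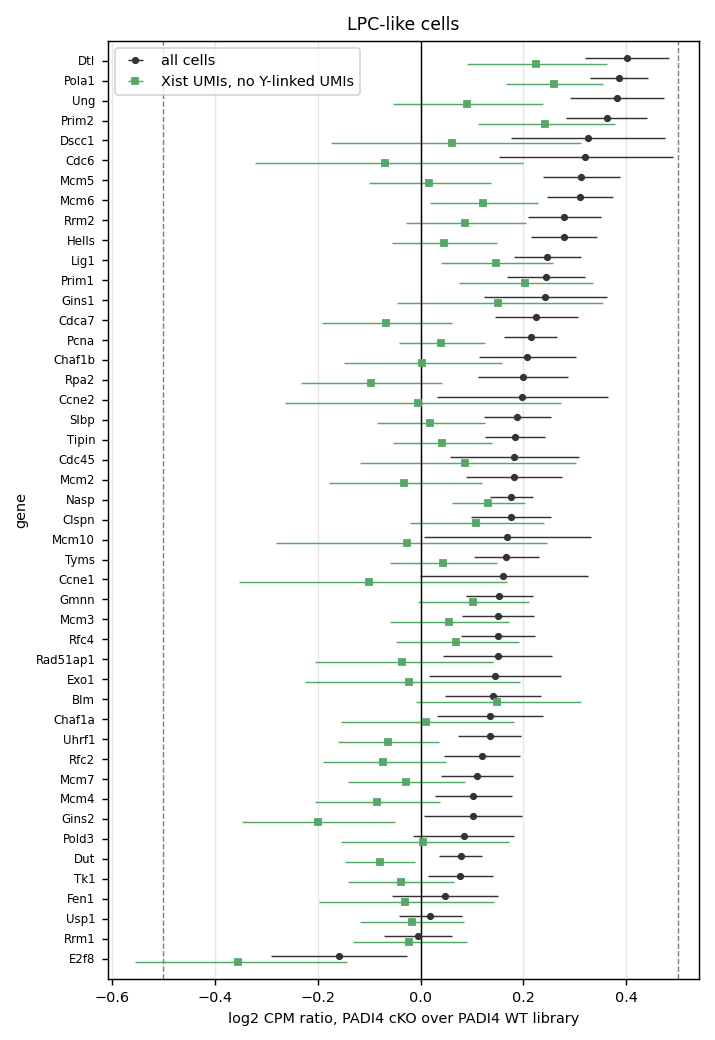
log2 CPM ratio of cKO over WT for each of the 46 genes in LPC-like cells, for all cells (dark circles) and for cells with Xist and no Y-linked UMIs (green squares), with 95% counting intervals and dashed lines at 0.5 in size. The circles run from -0.16 for E2f8 to 0.40 for Dtl and most lie right of 0, whereas the squares centre near 0 and 26 of 46 are positive.

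In ORS-like cells the sum differed less. The log2 ratio of cKO over WT was 0.07 (0.06 to 0.09), with an interval above 0 for 18 genes and below 0 for 9, against 17.3% and 18.7% of all genes. The 9 of 46 below 0 were thus near the background, whereas the 18 above 0 exceeded it. Dtl at 0.37, Mcm2 at 0.33 and Ung at 0.32 were highest, and E2f8 at -0.44, Ccne1 at -0.40 and Ccne2 at -0.39 lowest, followed by Tyms, Tk1, Rrm1 and Rrm2 between -0.19 and -0.16. No member passed 0.5 in size, where 1.95% of 12246 genes lay above 0.5 and 3.14% below -0.5. Of the further list, Ccna2 was at -0.79 and E2f7 at -0.63, and in uHF-like cells, where 3.71% of genes lay below -0.5, Ccna2 was at -0.66. Against WT cells with Xist alone the ORS-like ratio was -0.09 and 8 of 46 genes were positive, against 51.4% of all genes.

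The 5 ORS-like clusters did not share a direction. The ratio of the sum was 0.40 in cluster 6, 0.27 in cluster 16, 0.21 in cluster 1, 0.02 in cluster 5 and -0.25 in cluster 8, where 1 of 46 genes was positive against 49.5% of all genes. The 53 G2M genes were lower in cKO in all 5, between -0.41 and -0.91, and 41 of them lay below -0.5 in ORS-like cells as a whole. In uHF-like cells 32 of 52 G2M genes did so, while the G2M sum differed by 0.01 in GL-like and 0.00 in Med-like cells. Against WT cells with Xist the G2M ratio was -0.50 in ORS-like in place of -0.65, -0.17 in uHF-like in place of -0.50, -0.03 in GL-like and -0.14 in Med-like cells.

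**Figure D5:**
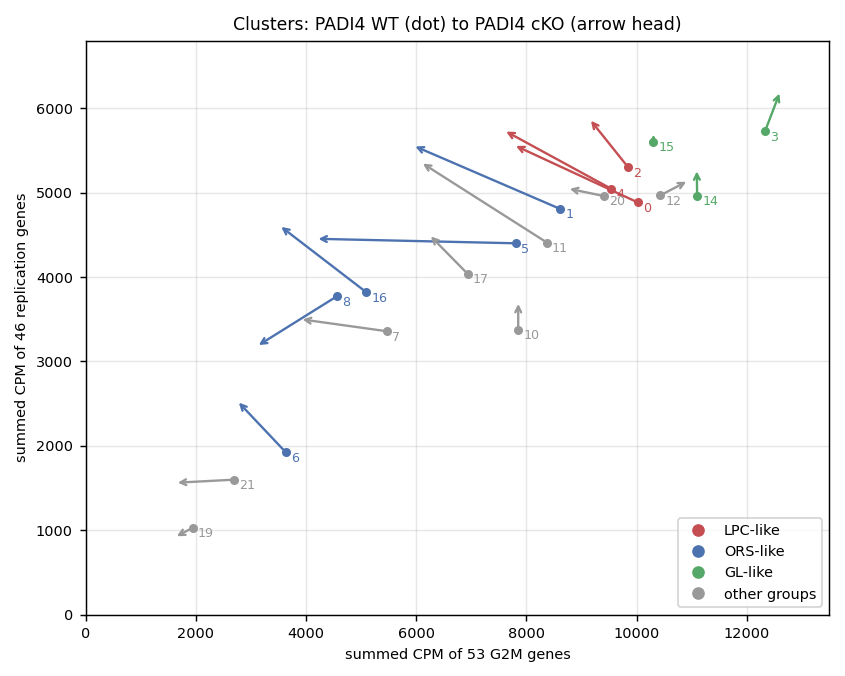
Summed CPM of the 53 G2M genes (horizontal) and of the 46 replication genes (vertical) for each cluster with at least 50 cells in both libraries, from WT (dot) to cKO (arrow head), coloured by class and numbered. Arrows of the ORS-like clusters point left, upwards in cluster 6 and downwards in cluster 8, and those of the GL-like clusters are short.

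Among the other groups the ratio of the sum was largest in cluster 11, at 0.28. It was 0.09 in GL-like, 0.06 in uHF-like, 0.03 in IRS-like and 0.14 in Med-like cells. In cluster 12 it was 0.05, in cluster 17 0.16, in SG-like cells -0.03 and in cluster 19 -0.18. Several of these moved when cKO was compared with the WT cells that had Xist and no Y-linked UMI. The ratio was then -0.12 (-0.16 to -0.09) in IRS-like, 0.15 in uHF-like, 0.205 in Med-like, -0.018 (-0.049 to 0.013) in cluster 12, 0.13 in cluster 17, -0.020 in cluster 19 and 0.07 in GL-like cells, and 0.24 (0.04 to 0.44) in SG-like cells, with 13 such WT cells. In cluster 11 it was 0.33 (0.25 to 0.42), with 20 such WT cells. The sign changed in IRS-like cells, where the interval over all cells was 0.0044 to 0.050. In cluster 12 and SG-like cells 1 of the ratios compared had an interval across 0, so a change of sign was not resolved. In GL-like cells 36 of the 46 genes were positive over all cells, against 46.7% of all genes. Single members passed 0.5 in size in 4 groups. Gins1 was at 0.55 in Med-like cells, where 1.47% of genes lay above 0.5, so 1 of 46 was near the background. Pola1 was at 0.60 in SG-like cells (4.95%), with an interval that reached below 0, and only 7 members were compared there. Pold3 was at -0.67 in cluster 19, where 17 members were compared and 2.27% of all genes lay below -0.5. In cluster 11, with 100 WT and 52 cKO cells, Dtl was at 0.75, Ung at 0.54, Chaf1a and Rpa2 at 0.52 and Pcna at 0.51, so 5 of 40 genes compared lay above 0.5 against 3.71% of all genes, and the sum was at 0.28. Orc1, the large subunit of the origin recognition complex, was at 0.96 in Med-like cells, on 70 UMIs in WT and 102 in cKO.

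Markers of other cell types stayed low among the epithelial cells. The 6 fibroblast markers summed to 8.16 CPM in WT and 7.84 CPM in cKO, with Col1a2 the most abundant at 5.61 and 4.80 CPM, and the 6 melanocyte markers to 84.1 and 113 CPM, of which Mitf made up 60.3 and 86.9 CPM. Their part in the replication levels was not tested.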

How the data were processed

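Single-cell libraries were made with 10x Genomics 3′ v3.1 chemistry. The authors deposited raw UMI counts per gene and droplet from Cell Ranger (7.1.0 in the matrix headers, mm10 in the labels), with no cell calls. The study's own analysis used CellBender and Harmony, which were not applied here. Cells were droplets within the study's limits of 2000 to 60000 UMIs and 1000 to 8000 detected genes, with a mitochondrial share up to 20%, a haemoglobin share up to 1%, and a ribosomal protein share inside percentiles 5 and 99 (Scanpy 1.11.5). S and G2M scores, the former built from the 46 genes, were regressed out, and cells were clustered by Leiden (50 components, 15 neighbours, resolution 1.0) on variable genes without the 46 genes, further replication genes, G2M genes or Padi genes. A cluster took the name of the list with the largest share of its markers raised 1.5-fold over the other cells at 5 CPM or more, if these were at least 3, no other list tied, under 0.9 of its cells came from 1 library, and no other list had more markers among its top 10 genes by fold. This rule was set after the clusters were seen. Cluster 9 was a tie, cluster 17 had too few markers, cluster 18 came from 1 library, and clusters 11, 12 and 19 had a marker of another list and none of their own among those 10 genes. Scrublet calls (296 cells in each library, at the automatic limit of the cKO library, as that of WT, 0.598, was not usable) were kept in, and left out as an alternative.

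Ratios were taken from UMIs summed per group and library, as CPM, with exact Poisson, binomial or conditional binomial intervals (SciPy 1.17.1). Genes needed 100 UMIs over the groups compared, and 0.5 on the log2 scale was the size limit. With 1 library per genotype no test was run. The planned comparison of cells with and without G2M UMIs left too few cells with none, so cells were split in 3 by G2M share. The members and lists were chosen with earlier results of these data known. All 46 members could be named. Those fixed by rule were the 5 widest and 5 narrowest of the class map, Pcna, Mcm5, Nasp, and members past the size limit; the other members named were picked after their values were seen. The scripts were tested on simulated data.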

Additional observations from a re-analysis of the deposited data

Results flagged for a closer look

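ORS-like clusters went opposite ways between the libraries: the log2 ratio of cKO over WT for the summed 46 genes was -0.25 in cluster 8, where 1 of 46 genes was positive against 49.5% of all genes, and 0.40 in cluster 6. In cluster 19 the ratio was -0.18 while LPC-like cells were at 0.18, and among cells with Xist and no Y-linked UMI these were -0.020 (-0.14 to 0.10) and 0.039. In LPC-like cells the ratio of the sum between cells of high and low G2M share was -0.33 in WT and 0.088 in cKO, and with cells thinned to 2000 UMIs the cKO value was 0.041 with an interval across 0 (-0.021 to 0.10). These differences between groups were not tested, since each rests on 1 library per genotype.

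Replication UMIs were also counted outside the epithelial groups. Fibroblast-like cells had 2922 CPM of the 46 genes in WT (50 cells) and 2190 CPM in cKO (27 cells), and melanocyte-like cells had 3047 CPM (26 cells) and 2830 CPM (10 cells). Droplets under 100 UMIs held 3949 CPM in WT and 4374 CPM in cKO, against 4406 and 4929 CPM in the epithelial cells.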

How the results depend on the processing

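The ratio of cKO over WT for the summed genes in LPC-like cells was 0.18 and was positive under all 13 alternatives. It was 0.15 at a minimum of 1000 UMIs per cell and also 0.15 at 4000, 0.16 at resolution 2.0, 0.20 when centred on the median gene, 0.039 among cells with Xist and no Y-linked UMIs, and 0.24 against WT cells with Y-linked UMIs. The last of these, the alternatives that leave out an ORS-like cluster and the 3-way G2M split were added after the data were seen. In ORS-like cells the ratio of 0.07 reversed to -0.093 among Xist cells. It was 0.12 at 1000 UMIs, 0.058 at 4000 UMIs, 0.041 and 0.10 at resolutions 0.5 and 2.0, 0.059 with marker-gated cells, 0.16 against WT Y-linked cells, and 0.0037, 0.089, 0.037, 0.18 and 0.060 without cluster 1, 5, 6, 8 and 16 in turn. In all epithelial cells it was 0.16 (4000 UMIs 0.16, centred 0.17, Xist cells 0.053, WT Y-linked cells 0.21). One gene, Dscc1, passed 0.5 in LPC-like cells only after thinning to 2000 UMIs, at 0.59 on 49 and 87 UMIs, and the count of genes below -0.5 was 0 throughout.

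The log2 ratio of highest over lowest WT group, 2.42, was 1.78 at 1000 UMIs, 1.79 at 4000, 1.68 and 1.89 at resolutions 0.5 and 2.0, 1.73 without cell cycle correction, 2.501 after thinning, 2.36 without mitochondrial and ribosomal protein genes, 2.88 after subtracting free RNA, and 0.75 with marker-gated cells, where IRS-like cells were highest at 5219 CPM and SG-like lowest at 3114 CPM. GL-like cells were highest in the others except at resolution 2.0, where cluster 12 was. Clusters of other clusterings took the label that most of their cells had in the main one. The 40 genes with at least 4-fold were 23 at 1000 UMIs, 20 at 4000, 21 and 26 at resolutions 0.5 and 2.0, 24 without cell cycle correction and 2 with marker-gated cells; in these alternatives SG-like cells had the lowest summed level.

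For the G2M split, the GL-like WT ratio of -0.66 was -0.55 after thinning, -0.69 without doublets and -0.80 among Xist cells; the GL-like cKO ratio of -0.69 was -0.60 and -0.70 after thinning and without doublets; the LPC-like WT ratio of -0.33 was -0.23 among Xist cells; and the LPC-like cKO ratio of 0.09 was 0.041 (-0.021 to 0.10) after thinning and 0.11 without doublets. The cause of these shifts was not tested. No paired analysis was possible because each genotype has 1 library. Depth limits genes with few UMIs in small groups, such as Exo1 and Dscc1 in cluster 19.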
